A study of Homo sapiens with 6 samples.

Results

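The genes described here encode the nuclear-encoded subunits of oxidative phosphorylation, the machinery of the inner mitochondrial membrane that passes electrons from NADH and succinate to oxygen and uses the resulting proton gradient to make ATP. Complex I (NADH dehydrogenase) and complex II (succinate dehydrogenase) feed electrons to ubiquinone, complex III passes them to cytochrome c, complex IV (cytochrome c oxidase) reduces oxygen, and complex V is the ATP synthase. Most subunits are encoded in the nucleus and imported, while a small core of complexes I, III, IV and V is encoded by mitochondrial DNA. Neurons depend heavily on this pathway for ATP. Members were taken by gene name (the NDUFA, NDUFB, NDUFC, NDUFS and NDUFV series, SDHA to SDHD, the UQCR genes, the COX5 to COX8 subunit genes and the ATP5 genes), which matched 94 of the 32862 genes in the table. After 15 pseudogenes were removed, 79 members remained, with 36 in complex I, 4 in complex II, 8 in complex III, 12 in complex IV and 19 in complex V. NDUFA4 was placed in complex IV, where the protein is found, and ATP5IF1, the inhibitor of ATP synthase, was kept with complex V. A few subunits with other names, such as COX4I1 and CYC1, fell outside this rule and are given with the other genes of the pathway.

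RNA was selected by poly(A) from SH-SY5Y, a human neuroblastoma cell line that is widely used as a neuronal model. The series compared wild-type (WT) cells with cells carrying a CRISPR-Cas9 knockout (KO) of OTULIN, a deubiquitinase that removes linear ubiquitin chains. There were 3 libraries per genotype. Both genotypes were untreated, were grown in DMEM-F12 with 10% FBS and carried the same batch label. The labels do not say whether the KO line was 1 clone, and they do not state that the replicates are separate cultures. The p-values therefore reflect the spread among these libraries alone, and that spread may be technical.

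The libraries labelled OTULIN KO stood apart from the WT libraries in depth and composition, and every comparison below rests on them. They held 725827 to 862932 counts each and 2306 to 2567 genes with a count, against 61772795 to 64352333 counts and 27453 to 27958 genes in WT. Their 10 most abundant genes took 33.1% to 47.1% of the counts, against 8.64% to 8.90% in WT. The targeted gene OTULIN, on the plus strand of chromosome 5 (14664664 to 14699850 in hg38), had 1682, 2101 and 2155 counts in WT and none in KO. Since 71.3% of the 10820 genes tested had 0 counts in all KO libraries, its absence does not check the labels. Of 8 adrenergic neuroblastoma markers in the table, ISL1 and HAND2 were among those with counts in KO, and CHGA, GATA3, DBH and PHOX2A were at 0 there. Their summed level was 464 to 598 CPM (counts scaled to the library total) in KO and 4921 to 5618 CPM in WT. Markers of blood and microglia summed to 4.64 to 26.2 CPM in KO and 0.0643 to 1.94 CPM in WT, those of glia and endothelium to 0 to 26.7 against 0.109 to 1.41 CPM, and those of epithelium to 4.94 to 28.97 against 7.43 to 23.1 CPM. In a single KO library 3 counts already made 3.48 to 4.13 CPM, so these KO sums rest on few counts. Of these lists 1, 0 and 2 genes were tested, in that order, and none was called. Fibroblast or mesenchymal markers summed to 46.4 to 134 CPM in KO and 122 to 130 CPM in WT, and of 4 tested COL1A1 was higher (5.10-fold), COL3A1 and PDGFRB were lower, and COL1A2 was not called. DCN and LUM, under the filter, had no count in KO. The part of these markers in the results was not tested. In bulk RNA, fewer cells and less RNA per cell cannot be told apart, and here depth, composition and the genotype label cannot be told apart either.

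Promoters of these genes are known for binding sites of nuclear respiratory factor 1 (NRF1), of the ETS-family factor GABP (also called NRF2) and of YY1. RefSeq gave a promoter window, 250 bases before to 50 bases after the start (GRCh38.p14), for 65 of the 79 members. Both strands were searched for fixed letters, and the share in one window per gene of all 27305 genes in the RefSeq table is given beside each count. The NRF1 motif, searched as GCGC, any base, then TGCGC, was present in 17 member promoters (26.2%, against 6.28% of all promoters). The ETS motif CCGGAAG was present in 19 (29.2%, against 10.7%) and the YY1 motif AAGATGGCG in 8 (12.3%, against 1.85%). At least one of these 3 motifs was found in 37 member promoters (56.9%, against 17%), and in 1 of the 65 promoters matches of different motifs overlapped. GGGCGG, the SP1 motif, was in 40 (61.5%, against 44.6%), and TATAAA was in 6 (9.23%, against 12%). Median GC content was 61.3% in the member windows and 58.3% in all windows. These matches are a description of letters and not of binding. The following sequences show the NRF1 and ETS motifs in 3 members at 0 or near 0 in the KO libraries, with capitals marking a motif on either strand. Each is the 250 bases before the start, 5′ to 3′ on the gene's strand, with positions counted back from the start. NDUFB7 (chr19:14572067-14572316, minus strand) holds the ETS motif at -24 to -18 and the SP1 motif, reverse complemented, at -196 to -191.
NDUFB7: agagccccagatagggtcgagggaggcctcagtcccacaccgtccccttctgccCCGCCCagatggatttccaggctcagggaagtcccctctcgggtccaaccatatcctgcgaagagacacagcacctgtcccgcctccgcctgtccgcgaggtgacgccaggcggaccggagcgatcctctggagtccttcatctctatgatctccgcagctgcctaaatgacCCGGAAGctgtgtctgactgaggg
NDUFB4 (chr3:120596086-120596335, plus strand) holds the NRF1 motif at -159 to -150 and again, reverse complemented, at -63 to -54.
NDUFB4: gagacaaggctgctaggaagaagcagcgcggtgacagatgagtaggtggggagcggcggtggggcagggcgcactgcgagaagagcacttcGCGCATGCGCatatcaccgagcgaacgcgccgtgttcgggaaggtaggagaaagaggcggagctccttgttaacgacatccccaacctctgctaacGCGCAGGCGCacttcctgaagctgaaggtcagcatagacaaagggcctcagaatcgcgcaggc
COX8A (chr11:63974370-63974619, plus strand) holds the ETS motif, reverse complemented, at -18 to -12 and the SP1 motif, also reverse complemented, at -157 to -152.
COX8A: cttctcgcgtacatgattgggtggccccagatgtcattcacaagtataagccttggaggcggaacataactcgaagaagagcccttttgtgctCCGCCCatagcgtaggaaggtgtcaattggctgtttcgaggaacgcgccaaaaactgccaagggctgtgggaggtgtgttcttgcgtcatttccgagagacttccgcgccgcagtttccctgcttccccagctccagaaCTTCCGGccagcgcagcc

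In WT cells 76 of the 79 members passed the filter for testing, an average of 1 FPKM or more across both genotypes, and their levels ran from 2.26 to 272 FPKM. FPKM divides by length as well as depth, so that genes can be compared, and is given here as mean ± SD of 3 WT libraries. The median over all 79 members was 17.4, 17.7 and 17.7 FPKM in the WT libraries. By complex the median level, untested members included, was 13.1 FPKM in complex I, 13.3 in complex II, 23.1 in complex III, 32.3 in complex IV and 23.1 in complex V. Over tested members alone it was 35.1 FPKM in complex IV and 24.4 in complex V. The WT replicates were close for most members, with a median coefficient of variation of 4.77% over tested members and a highest value of 20.9% for ATP5F1D, the delta subunit of the F1 part.

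Highest of all was ATP5F1B, the catalytic beta subunit of ATP synthase, with 268.4, 269.5 and 278.0 FPKM in the WT libraries (272 ± 5.3). Within complex V it was followed at a distance by ATP5MK, a small subunit of the membrane part, at 45.6 ± 2.1 FPKM and by ATP5F1C, the gamma subunit of the rotor, at 42.7 ± 2.0 FPKM. The difference between ATP5MK and ATP5F1C was within their spread over replicates. COX8A, a small subunit of complex IV, had 228.1, 222.6 and 207.9 FPKM (220 ± 10). In the same complex COX6A1, the widely expressed form of subunit VIa, had 108 ± 0.86 FPKM and COX5A had 48.0 ± 3.8 FPKM. These 3 complex IV levels differed from one another by more than the replicate spread.

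In complex I the highest level was that of NDUFS5, an accessory subunit, with 142.5, 143.5 and 136.4 FPKM (141 ± 3.8). NDUFB7 followed at 97.7 ± 9.2 FPKM and NDUFB10 at 46.2 ± 4.0 FPKM, both accessory subunits of the membrane arm. NDUFA12 was the lowest member of complex I at 2.26 ± 0.091 FPKM. Among the 4 genes of complex II, SDHC, which encodes a membrane anchor, was highest at 35.9 ± 0.86 FPKM. SDHB, the iron-sulfur subunit, had 13.6 ± 1.3 FPKM and SDHD, the other anchor, 12.9 ± 0.82 FPKM, a difference within their spread. The flavoprotein SDHA was lowest at 7.09 ± 0.12 FPKM. In complex III, UQCRH, the hinge protein that links cytochrome c1 to cytochrome c, had 129.1, 127.4 and 125.5 FPKM (127 ± 1.8). It was followed by UQCR10 at 30.6 ± 0.46 FPKM and the core protein UQCRC2 at 25.5 ± 0.74 FPKM, and UQCRB was lowest at 5.28 ± 0.12 FPKM.

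The 3 members under the threshold of 1 FPKM were paralogs of expressed subunits. COX6B2 and COX8C, known as testis forms, had 0.0496 and 0.0688 FPKM, and ATP5MGL, a copy-like gene of the g subunit, had 0.0245 FPKM (means over WT). The widely expressed gene supplied 99.7% ± 0.18 of the COX6B1 and COX6B2 counts in WT. For COX8A among the COX8 counts the share was 99.97% ± 0.040, and for ATP5MG among the g subunit counts it was 99.97% ± 0.045. None of COX6B2, COX8C and ATP5MGL had a count in KO, where their expected counts were too low for an absence to be detectable.

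The order of members by FPKM depended on the transcript length behind it. The deposited FPKM implied a length with a median of 1.09 times the merged exons of GENCODE 29, and for members a median of 2.81 times their main coding transcript (range 0.158 for SDHC to 25.5 for NDUFB9). When WT CPM was divided by the length of the main coding transcript instead, a choice made after seeing the data, 5 of the 10 highest members by FPKM were again among the 10 highest. On that scale ATP5F1B had rank 1 and UQCRH rank 2, against ranks 1 and 4 by FPKM. NDUFB9 moved from rank 71 to 13, NDUFA11 from 45 to 8, ATP5MF from 33 to 5 and SDHC from 14 to 75, out of 76 tested. Across the 76 members Spearman's rho between the scales was 0.62, a description of points that share the same counts. Ranks of the short subunits therefore differ between these scales, while comparisons of 1 gene between libraries do not use the length.

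**Figure D1:**
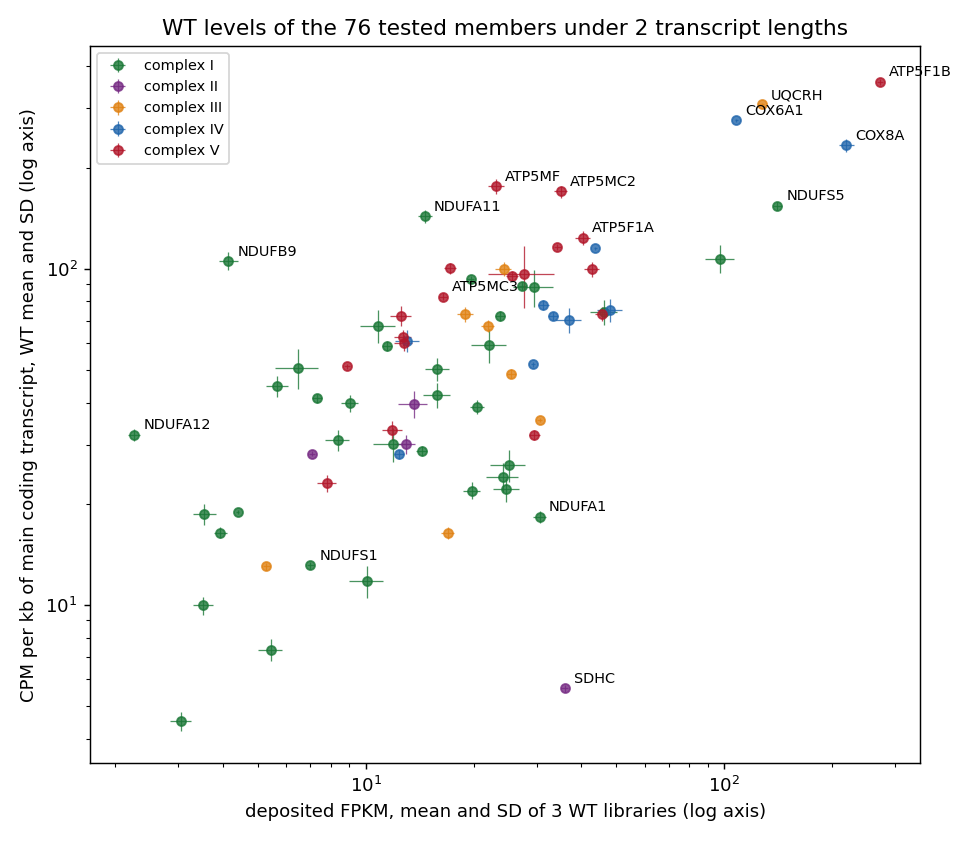
WT level of the 76 tested members on both length scales, with deposited FPKM on the x axis and CPM per kb of the main coding transcript on the y axis, both logarithmic; points are means of 3 WT libraries, bars are SD and colours are complexes. ATP5F1B is highest on both axes, while SDHC lies far below and NDUFB9 far above the bulk of the points.

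Between the genotypes, 74 of the 76 tested members were lower in the libraries labelled OTULIN KO, 1 was higher and 1 was not called. Calls were made with edgeR's quasi-likelihood test at an adjusted p under 0.05 (Benjamini-Hochberg, over all 10820 genes). Over all genes tested, 88% were lower, 7.63% were higher and 95.6% passed in either direction, so the members' 97.4% lower stands near the background. In WT 77, 78 or 79 members had a count in each library, with 357146 to 376459 member counts in all. In KO 6, 4 and 8 members had a count, and 2080, 2140 and 2195 member counts were seen. The groups did not overlap in CPM for any of the 76 members, against 96.2% of genes tested. There were 64 tested members with 0 counts in all KO libraries, and the remaining 12 had at least 1 count (15.8%, against 28.7% of genes tested). ATP5MC3, NDUFS1 and ATP5F1B (5994, 339 and 38 counts) had at least 30 counts over the KO libraries, a level that 13.8% of genes tested reached. The filter averages both genotypes, so a gene low in WT could be tested through its KO level. Tested members had at least 2.26 FPKM in WT and passed on their WT level. Shares with KO counts over all genes tested, here and below, are therefore not a like background.

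For a gene at 0, the fold is given as a lower bound against 3 counts in the summed KO libraries, which is 1.25 CPM, since the fitted change then depends on the prior count. For the 64 tested members at 0, the lowest bound was 7.04-fold lower (NDUFB1) and the median 45.4-fold, and UQCRH reached 148.9-fold. At their WT share of counts, these 64 genes would each have had at least 21.1 counts over the KO libraries, and their adjusted p ran from 1.2e-05 to 0.00033. With such genes at their bound, the median log2 change was -5.41 over the 76 members and -4.55 over all genes tested. By complex it was -5.23 in I, -5.47 in II, -5.71 in III, -5.76 in IV and -5.51 in V. For a gene at 0 the bound is set by its WT CPM and the depth of the KO libraries alone. Since most members sit at their bound, these medians largely follow WT levels and do not rank members or complexes by change. Floors and intervals cover counting error only.

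**Figure D2:**
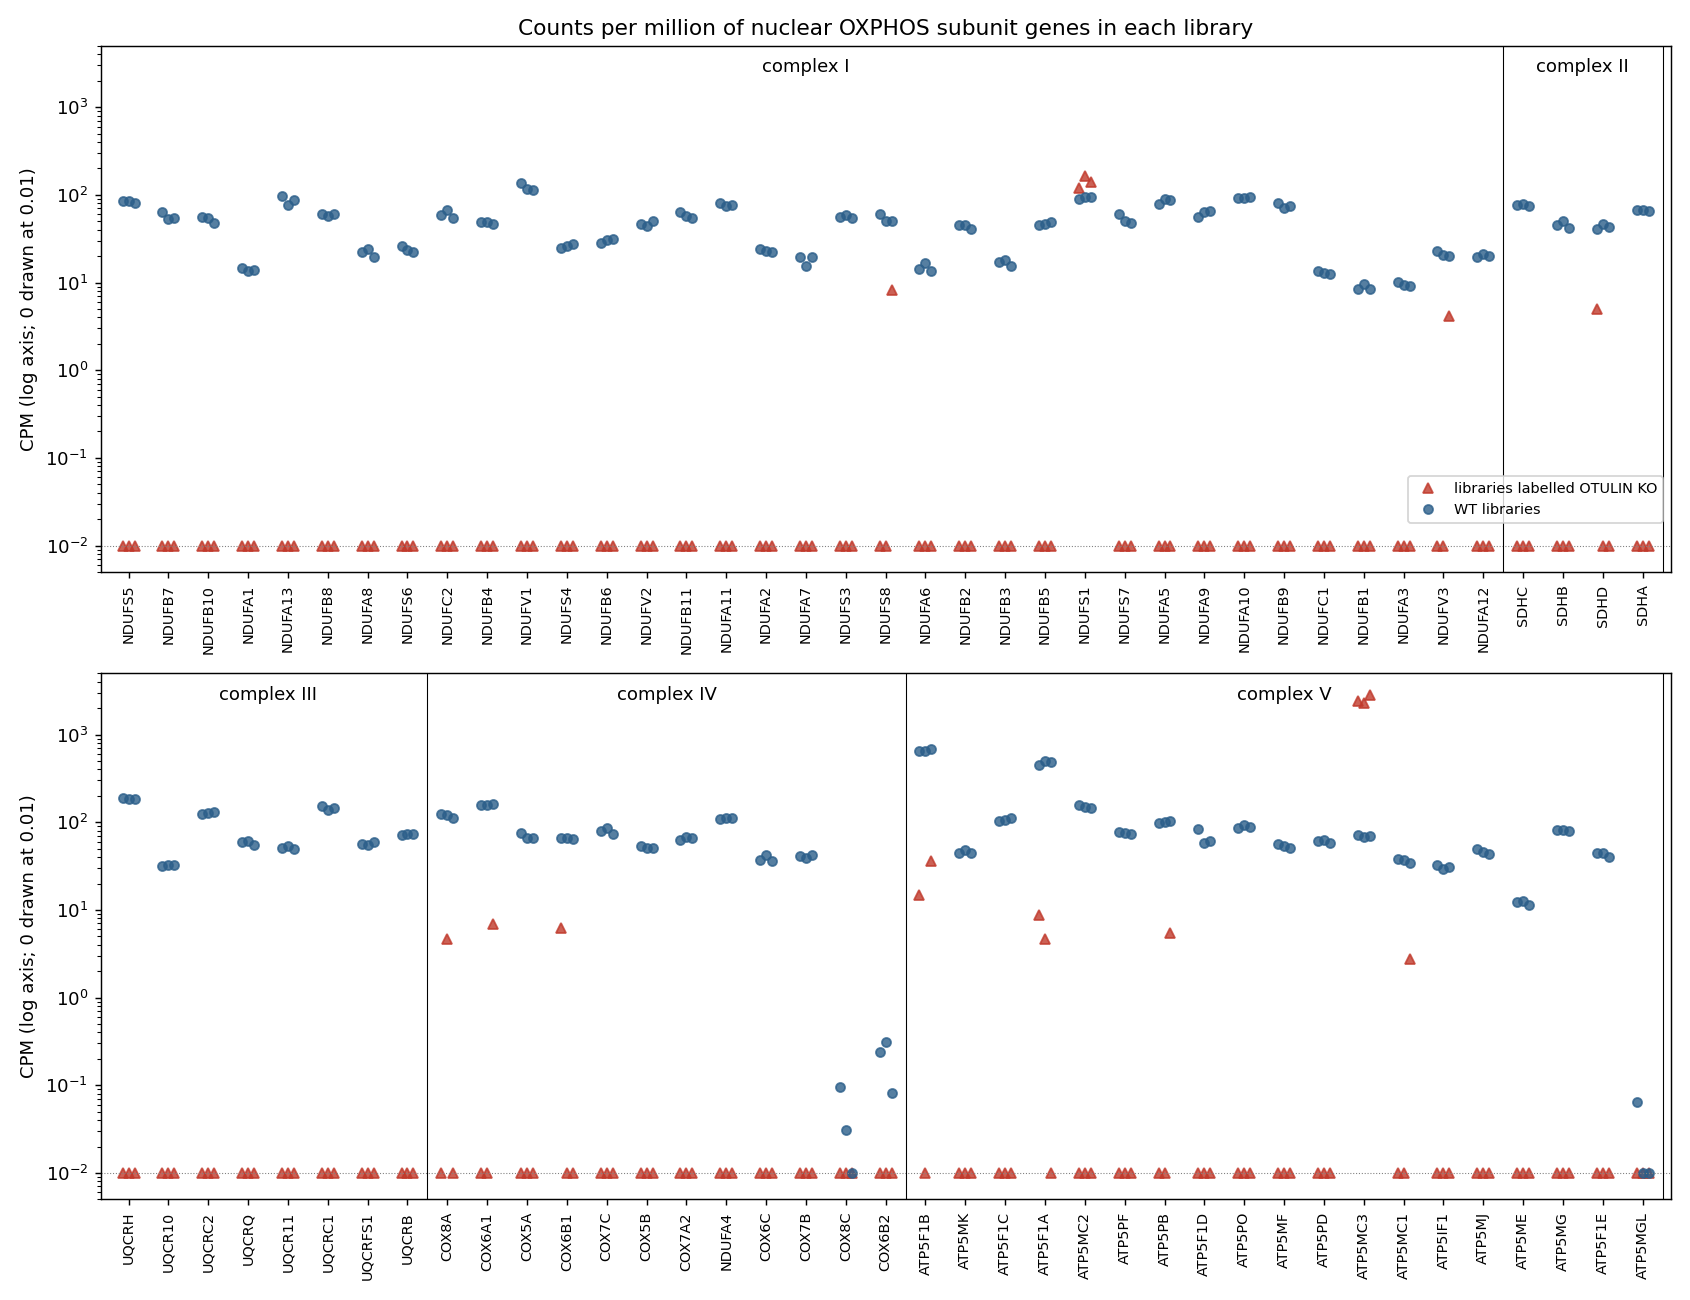
CPM of the members, 1 of them not drawn, in each of the 6 libraries (log axis, values of 0 drawn at 0.01), grouped by complex and ordered by WT FPKM within it; triangles are the libraries labelled OTULIN KO and circles the WT libraries. Most triangles lie on the line for 0, and ATP5MC3 and NDUFS1 are the 2 genes whose 3 KO values lie above all WT values.

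Complex I has 7 nuclear core subunits, which carry the NADH site, the iron-sulfur clusters and the quinone site, and 29 accessory subunits among the members. Of the core genes, 6 were lower and NDUFS1 did not pass the threshold. NDUFS3, NDUFS7, NDUFV1 and NDUFV2 had no count in KO, with bounds from 37.4-fold (NDUFV2) to 97.7-fold lower (NDUFV1, which binds NADH). NDUFV1 had 8594, 7448 and 6974 counts in WT (122 ± 14 CPM) and 0, 0 and 0 in KO, so every WT library was far above every KO library.

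NDUFS1, the largest core subunit, with iron-sulfur clusters on the path from NADH (ENSG00000023228, chromosome 2, 206114817 to 206159509, minus strand), had 97, 141 and 101 counts in KO and 5627, 6026 and 5867 in WT. That is 119.8, 163.4 and 139.2 CPM in KO against 90.5, 93.6 and 94.98 CPM in WT, so all 3 KO values were above all WT values. The ratio of means was 1.51 (95% counting interval 1.36 to 1.69). With TMM scaling the log2 change was 0.21 ± 0.16 (SE, adjusted p = 0.22). The sign of that change differed between scalings. It was -0.35 with DESeq2 (adjusted p = 0.010) and -0.34 with median-ratio factors (adjusted p = 0.067), but 0.60 with library totals alone (adjusted p = 0.0031) and 0.35 without KO replicate 1 (adjusted p = 0.036). Among the 1496 tested genes with at least 30 KO counts, the median log2 change was 0.57 with TMM, 0.96 with library totals and 0.01 with median-ratio factors. Relative to that median NDUFS1 was at -0.35 in the TMM fit, at the 44th percentile of those genes. NDUFS1 supplied 100%, 100% and 91.8% of the complex I counts in KO and 4.98% ± 0.26 in WT.

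The other 2 genes of complex I with KO counts had them in 1 library each. NDUFS8, a core iron-sulfur subunit, had 0, 0 and 6 counts in KO and 3772, 3215 and 3108 in WT. It was 19.5-fold lower by mean CPM (95% counting interval 9.84 to 58.4, log2 -4.81 ± 0.58, edgeR adjusted p = 0.00017). NDUFV3, an accessory subunit of the NADH-oxidizing module, had 0, 0 and 3 counts in KO and 1413, 1325 and 1243 in WT, 15.3-fold lower (interval 5.78 to 82.0). Without KO replicate 3 both genes were at 0.

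All 29 accessory genes of complex I were lower, and 28 of them had no count in KO, with bounds from 7.04-fold (NDUFB1) to 74.3-fold lower (NDUFA10). These 28 are NDUFA1 to NDUFA3, NDUFA5 to NDUFA13, NDUFB1 to NDUFB11, NDUFC1, NDUFC2, NDUFS4, NDUFS5 and NDUFS6. NDUFS5, the highest complex I gene by WT FPKM, had 5294, 5518 and 5042 counts in WT and was at least 67.3-fold lower. NDUFB7 and NDUFB4, whose promoters are printed above, were at least 45.6-fold and 38.9-fold lower. NDUFB1, a small subunit of the membrane arm, had 526, 615 and 520 counts in WT, and its bound was the smallest because its WT CPM, on which the bound rests, was the lowest among tested members.

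Complex II, the only respiratory complex with no mitochondrially encoded subunit, had all 4 genes lower. SDHA, SDHB and SDHC had no count in KO and were at least 53.9-fold, 36.5-fold and 61.4-fold lower. SDHD (112086824 to 112120016 on the plus strand of chromosome 11) had 4, 0 and 0 counts in KO and 2518, 2959 and 2675 in WT. It was 26.3-fold lower (95% counting interval 10.1 to 95.3, log2 -5.09 ± 0.51, edgeR adjusted p = 6.5e-05), and was at 0 without KO replicate 1.

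Complex III was the complex with no count at all in KO, where 1753 counts would have been seen over the 8 genes at their WT share. UQCRH had 11731, 11987 and 11356 counts in WT and was at least 148.9-fold lower. The core proteins UQCRC1 and UQCRC2 were at least 116-fold and 102-fold lower, and UQCRFS1, the Rieske iron-sulfur subunit that takes electrons from ubiquinol, at least 45.5-fold lower. UQCRB, UQCRQ, UQCR10 and UQCR11, small subunits of the membrane part, had bounds from 26.0-fold (UQCR10) to 58.0-fold (UQCRB). UQCRFS1 has a pseudogene copy, UQCRFS1P1, which had 3 counts in KO, the only KO counts among 55 pseudogene copies of members. Those 55 copies together held 2586 WT counts, 0.235% of the members' WT counts.

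All 10 tested genes of complex IV were lower. COX5A, COX5B, COX6C, COX7A2, COX7B, COX7C and NDUFA4 had no count in KO, with bounds from 30.9-fold (COX6C) to 88.5-fold lower (NDUFA4). COX8A had 0, 4 and 0 counts in KO and 7637, 7714 and 6926 in WT, which is 76.5-fold lower (95% counting interval 27.7 to 260). COX6A1 had 0, 0 and 5 counts in KO and 9739, 10189 and 9846 in WT, 68.8-fold lower (interval 32.5 to 234). The third, COX6B1, which lies on the intermembrane side near the cytochrome c site, had 5, 0 and 0 counts in KO and 4076, 4238 and 3990 in WT, 31.7-fold lower (interval 13.4 to 96.5). Adjusted p for these 3 was 1.5e-05 to 3.5e-05 in the edgeR test, and each was at 0 without the 1 KO library that held its counts.

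In complex V, the ATP synthase, 17 of 18 tested genes were lower and 1, ATP5MC3, was higher. The F1 part, which makes ATP, held the members with the most WT counts. ATP5F1B, the catalytic beta subunit (ENSG00000110955, chromosome 12, 56638175 to 56645984, minus strand), had 12, 0 and 26 counts in KO and 40704, 42314 and 41965 in WT. That is 16.9 ± 18 CPM in KO against 664 ± 14 in WT, or 39.3-fold lower (95% counting interval 30.5 to 59.2, log2 -5.77 ± 0.69, edgeR adjusted p = 0.00016). Without KO replicate 1, 2 or 3 it was 37.1-fold, 26.2-fold or 89.6-fold lower, in that order. At its WT share it would have had 1592 counts in KO, and its rank among all genes was 125 in WT and 1415 in KO. ATP5F1A, the alpha subunit, had 7, 4 and 0 counts in KO and 28230, 32097 and 30213 in WT. It was 109-fold lower (interval 58.6 to 210, log2 -7.11 ± 0.45, edgeR adjusted p = 1.4e-05). Leaving out KO replicate 1, 2 or 3 made it 207-fold, 111-fold or 72.4-fold lower, in that order. The gamma, delta and epsilon subunits, ATP5F1C, ATP5F1D and ATP5F1E, had no count in KO and were at least 85.9-fold, 54.4-fold and 34.6-fold lower.

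The peripheral stalk holds the F1 part still against the rotor. Its subunits ATP5PD, ATP5PF and ATP5PO had no count in KO and were at least 48.4-fold to 70.9-fold lower. The fourth, ATP5PB (subunit b), had 0, 0 and 4 counts in KO and 6051, 6523 and 6464 in WT. It was 55.0-fold lower (interval 23.7 to 223) and was at 0 without KO replicate 3. Of the small subunits of the membrane part, which hold ATP synthase dimers together, ATP5ME, ATP5MF, ATP5MG, ATP5MJ and ATP5MK had no count in KO, with bounds from 9.66-fold (ATP5ME) to 64.7-fold lower (ATP5MG). ATP5IF1, the inhibitor that blocks ATP hydrolysis when the proton gradient falls, was at least 24.7-fold lower.

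The c subunit forms the ring that turns with the flow of protons, and 3 genes, ATP5MC1, ATP5MC2 and ATP5MC3, encode the same mature protein with different import sequences. These genes went in opposite directions. ATP5MC3 (ENSG00000154518, chromosome 2, 175176258 to 175181710, minus strand) had 1955, 1991 and 2048 counts in KO and 4448, 4371 and 4295 in WT. That is 2415, 2307 and 2822 CPM in KO and 71.5, 67.9 and 69.5 CPM in WT. Every KO value was thus more than 30 times every WT value, and the ratio of means was 36.1 (95% counting interval 34.8 to 37.0). The edgeR log2 change was 4.78 ± 0.098 (SE, adjusted p = 1.0e-06), and it was 4.21 to 5.17 and called under each of the 14 alternatives run. Relative to the median of the 1496 genes with at least 30 KO counts it was higher by 4.21, at rank 126 from the top among them. Over all genes tested, 3.02% had a KO CPM over 10 times that in WT, and 166 had a ratio at least as high as that of ATP5MC3. Genes that passed the filter through their KO level can be among these. ATP5MC3 ranked 51 of 32862 genes by CPM in KO and 3398 in WT.

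ATP5MC2 had 0, 0 and 0 counts in KO and 9699, 9518 and 8882 in WT, at least 119-fold lower. ATP5MC1 had 0, 0 and 2 counts in KO and 2383, 2365 and 2117 in WT, 39.7-fold lower (95% counting interval 12.1 to 361), and was at 0 without KO replicate 3. As a share of the c subunit counts, ATP5MC2 held 58.4% ± 0.32, ATP5MC3 27.3% ± 0.68 and ATP5MC1 14.3% ± 0.38 in WT. In KO the ATP5MC3 share was 100%, 100% and 99.9%. The table held no pseudogene copy of ATP5MC3, and the only other gene overlapping it, a Y RNA on the same strand, had 3 counts in WT and 0 in KO.

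**Figure D3:**
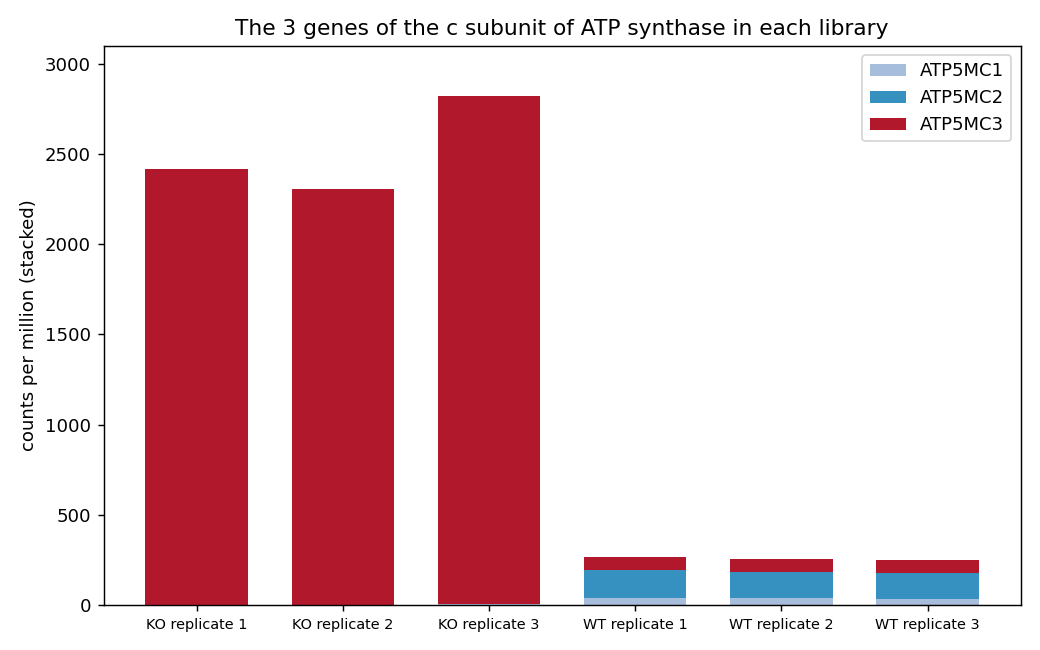
Stacked CPM of ATP5MC1, ATP5MC2 and ATP5MC3 in each of the 6 libraries (linear axis from 0, 1 bar per library). ATP5MC3 makes up nearly the whole bar in the 3 KO libraries (2307 to 2822 CPM), while in WT ATP5MC2 is the largest of the 3 parts.

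As a share of all counts in the library, the members held 0.257%, 0.248% and 0.302% in KO and 0.590%, 0.585% and 0.578% in WT. The 2 genotypes were fully separated for all members together and for each complex. An exact permutation test, two-sided, returned p = 0.1 for each of these 6 shares (0.1 after Benjamini-Hochberg adjustment), and no smaller p is possible with 3 libraries against 3. Complex I held 0.0145% ± 0.0023 (SD of 3 libraries) in KO and 0.187% ± 0.0053 in WT. Complex II held 0.00016% ± 0.00029 against 0.0233% ± 0.00085, complex III 0% against 0.0731% ± 0.00032, and complex IV 0.00059% ± 0.00012 against 0.0798% ± 0.0013. Complex V alone was higher in KO, at 0.254% ± 0.029 against 0.221% ± 0.00084, but as a share of the FPKM sum it was lower there (KO minus WT -0.096 percentage points). ATP5MC3 made up 99.1% ± 0.67 of the complex V counts in KO against 3.15% ± 0.093 in WT. Without ATP5MC3, a setting added after seeing the data, complex V held 0.0024% ± 0.0020 in KO and 0.214% ± 0.0010 in WT. All members without ATP5MC3 held 0.0177% ± 0.0024 in KO and 0.577% ± 0.0059 in WT, a ratio of 32.7. Without both ATP5MC3 and NDUFS1, 82 counts of members were left over the 3 KO libraries.

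**Figure D4:**
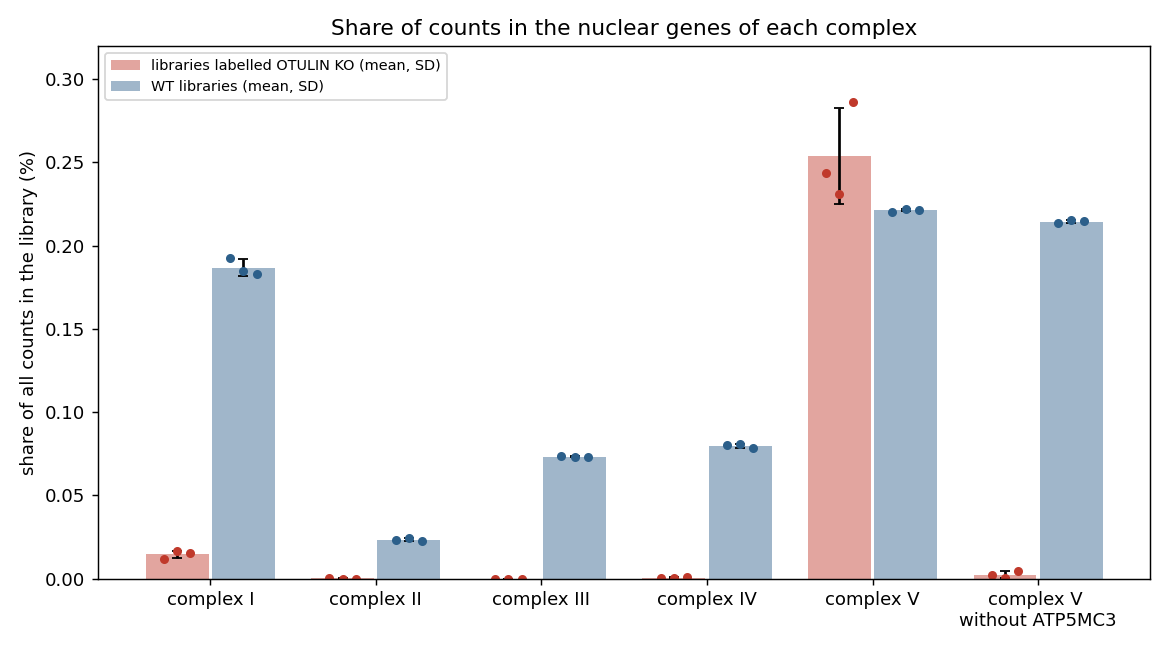
Share of all counts held by the nuclear genes of each complex, in percent (linear axis from 0); bars are means of 3 libraries, error bars are SD and points are the libraries. Complex V is the only complex with a higher bar in KO (0.254% against 0.221% of counts, a direction that turns as a share of the FPKM sum), and its KO bar falls to 0.0024% without ATP5MC3.

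Counts in KO were set beside those expected if each gene had held its WT share of the KO totals. Over all members 14017 counts were expected and 6415 observed. Over the members other than ATP5MC3, 13850 were expected and 421 observed. By complex the expected and observed counts were 4481 and 348 in complex I, 559 and 4 in complex II, 1753 and 0 in complex III, 1914 and 14 in complex IV, and 5310 and 6049 in complex V. Of the 8 members with at least 300 expected counts 3 had a KO count, against 52.5% of 1631 genes, and of the 48 members with 100 to 300 expected counts 7 did, against 30.3% of 3844 genes. Of the 17 with 30 to 100 it was 2, against 17.4% of 3720 genes, and of the 3 with fewer than 30 it was 0, against 26.9% of 1625 genes. Above 30 expected counts the share with a KO count was higher in each step up for all genes, but it was also higher below 30 than at 30 to 100. Genes below 30 could pass the filter through their KO counts, so that share is in part set by the filter.

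**Figure D5:**
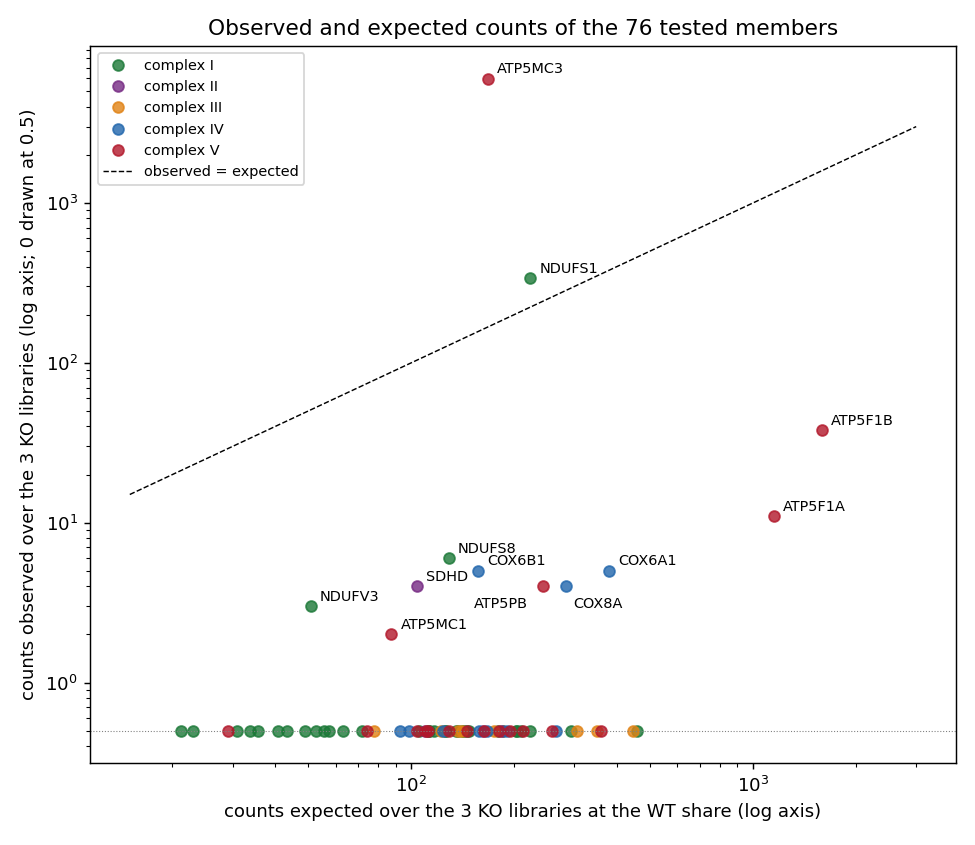
Counts observed over the 3 KO libraries against counts expected at the WT share for the 76 tested members, both on log axes with 0 drawn at 0.5; colours are complexes and the dashed line marks equal values. ATP5MC3 and NDUFS1 lie above the line, the 10 other members with a count lie below it, and 64 members lie on the dotted line for 0.

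The members are encoded by short transcripts, and among tested genes with a length the share with a KO count was higher from 2000 nt than below it. The main coding transcript had a median of 917 nt for members and 2985 nt for all tested genes with a length (9533 of 10820). Of the 44 members under 1000 nt, 6 had a KO count, against 21.0% of the 561 genes of that length. From 1000 to 2000 nt it was 2 of 17 members against 19.5%, from 2000 to 4000 nt 2 of 9 against 27.4%, and from 4000 nt 2 of 6 against 38.6%. The part of length in the members' counts was not tested.

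Strandedness of the counting is not given in the sources used here, and 49 of the 79 members overlap another gene in the table, so shared reads were looked for. For 9 members the overlapping gene had KO counts. NDUFS3 overlaps CELF1, which had 2738 counts in KO on the opposite strand, and NDUFS3 had 0. NDUFC1 overlaps NAA15 (677 KO counts), NDUFB8 overlaps HIF1AN (230) and NDUFB2 overlaps BRAF (190), all on opposite strands, and the 3 members had 0. None of the 12 members with KO counts overlapped a gene with a count in KO.

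The other genes of respiration had the same direction with few exceptions. All 6 tested subunits or carriers outside the name rule were lower. COX4I1, the largest nuclear subunit of complex IV, had 0, 0 and 3 counts in KO, while CYCS (cytochrome c, at least 154-fold lower) and CYC1 (cytochrome c1, at least 66.1-fold lower) had none. All 13 genes of mitochondrially encoded subunits were lower. Of these MT-ND4L, MT-ND6 and MT-ND3 had no count in KO, with MT-ND4L at least 1025-fold and MT-ND6 at least 355-fold lower, and MT-CO1, the catalytic subunit of complex IV, had 16 KO counts and was 2663-fold lower. The mitochondrially encoded genes held 8.41% to 8.70% of the counts in WT and 0.00372% to 0.00452% in KO.

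Assembly factors, which build the complexes without being part of them, were lower in every tested case. For complex I it was 13 of 13, with bounds of 86.7-fold for COA1 and 49.4-fold for ECSIT. For complex II it was 4 of 4, for complex III 6 of 6 (TTC19, at least 47.5-fold), for complex IV 19 of 19 (COX11, at least 53.5-fold) and for ATP synthase 4 of 4 (ATPAF1, at least 46.8-fold). All 17 tested genes of the TCA cycle and pyruvate dehydrogenase, 19 of mitochondrial protein import and 75 mitochondrial ribosomal proteins were lower too, among them CS (citrate synthase, at least 207-fold) and the import receptor TOMM20 (at least 513-fold). Against 88% of all tested genes lower, these counts stand near the background.

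Among the lists of other pathway genes, only the regulators of respiratory genes had calls in both directions, with 10 of 14 lower, 3 higher and 1 not called. Over all genes tested, 88% were lower and 7.63% were higher. TFAM, which packages and transcribes mitochondrial DNA, and the coactivator PPRC1 had no count in KO and were at least 60.1-fold and 79.2-fold lower. The factors whose motifs were searched in the promoters, and ESRRA, for which no motif was searched, are named here after their values were seen. YY1 had 1016, 965 and 1029 counts in KO and 8543, 9141 and 9211 in WT, which is 1264 ± 150 CPM against 143 ± 5.9 CPM. It was 8.85-fold higher (log2 2.75 ± 0.093, edgeR adjusted p = 4.0e-06), with no overlap between the groups. GABPA, the DNA-binding ETS subunit of GABP, had no count in KO and 2852, 3736 and 3429 in WT, and was at least 42.5-fold lower (edgeR adjusted p = 5.3e-05). Its partner subunit GABPB1 was 3.47-fold higher (165 ± 40 against 47.6 ± 1.9 CPM, log2 1.39) and ESRRA, a nuclear receptor of the respiratory genes, 2.78-fold higher (94.3 ± 19 against 33.9 ± 1.8 CPM, log2 1.07). NRF1 had 4, 12 and 6 counts in KO and was 3.90-fold lower (9.04 ± 4.5 against 35.3 ± 1.9 CPM, log2 -2.33, adjusted p = 0.00013). SP1 was 1.88-fold lower by CPM. Of these factors YY1, GABPB1, ESRRA and SP1 had at least 30 KO counts, a set of genes whose median log2 change was 0.57. YY1, GABPB1 and ESRRA were above that median and SP1 (log2 -1.29) below it. NRF1 and GABPA had fewer KO counts, which places them outside that set, so they were not set against its median.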

How the data were processed

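Members and lists were chosen with earlier results of these data known. The rule for named genes took every member with a KO count or not called lower, the highest and lowest WT levels per complex, and paralogs. Some genes that the rule takes or the lists hold, though counted, are left unnamed. The authors deposited counts per gene without normalization and FPKM values beside them, as the column names per the file headers show. Per the submitters' processing notes, the tools were HISAT2 2.0.4, StringTie 1.3.4d, cutadapt 1.9 and DESeq2 on build hg38. Those notes assign them no role and no order. Strandedness and annotation release were not given in the sources used here.

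The edgeR test (version 4.0.16, glmQLFit and glmQLFTest, R 4.3.3) took the 10820 of 32862 genes whose FPKM averaged 1 or more across the libraries. It used TMM factors, total counts as library sizes and genotype as the only term. An SE is the size of the log2 change divided by the root of its F statistic. CPM divide counts by the library total, and folds are ratios of mean CPM. Intervals are 95% exact binomial (Clopper-Pearson) on pooled counts. At 3 counts the floor was 3.48 to 4.13 CPM per KO library and 0.0466 to 0.0486 in WT. The edgeR fit was run on simulated counts in which most genes held their WT share, unlike these data. That run does not check the scaling here, and the DESeq2 and limma fits were not simulated. Replicate pairs differed beyond sampling noise, so none was treated as the same library. Alternatives used DESeq2 1.42.0 and limma 3.58.1 on log2(FPKM + 1) and log2(FPKM + 0.1), other filters and scalings, a replicate block, and leaving out each library. Lengths came from GENCODE 29 (median over coding transcripts of the best APPRIS level) and promoters from RefSeq. Summaries were made in Python 3.11.15 with pandas 2.3.3, scipy 1.17.1 and numpy 2.4.6, and figures with matplotlib 3.10.9.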

Additional observations from a re-analysis of the deposited data

How the results depend on the processing

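Leaving out each library in turn left 73 to 74 members lower and 1 to 2 higher, and a WT median of 17.1 to 17.6 FPKM. The second higher call, made without KO replicate 1, with library totals without TMM factors and with limma at both pseudocounts (2 members higher each), was NDUFS1. Its log2 change was -0.35 with DESeq2, -0.11 at a mean of at least 5 FPKM and -0.34 with median-ratio factors. The complex V share of counts, KO minus WT, was -0.096 percentage points as a share of the FPKM sum and -0.21 without ATP5MC3. By the other length, 5 of the 10 highest WT members were shared. A mean of at least 5 FPKM, which tests fewer genes, left 3851 genes lower, with 4 of complex I assembly, 0 of complex III assembly (none of its genes was tested), 7 of complex IV assembly, 1 of ATP synthase assembly and 5 regulators.

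Same-numbered deviations of KO and WT replicates correlated at 0.020, -0.0043 and 0.050 over all genes tested. Over the 1496 genes with at least 30 KO counts they correlated at 0.025, -0.017 and 0.031. Most genes tested had 0 counts in all KO libraries and so no KO deviation, and KO depth was low. These values therefore cannot show whether replicate numbers pair the samples. With the replicate number as a block, 1 member was lower (ATP5F1A) and 1 higher (ATP5MC3), and 289 genes were lower and 452 higher. The block left 0 lower calls in the subunits outside the name rule, the assembly lists of complexes I to IV and ATP synthase, the regulators, the TCA cycle, import and ribosomal lists, and 1 regulator higher. At an unadjusted p under 0.05 in the same edgeR fit, 57 members and 86 of the 177 tested genes of those lists were lower. DESeq2 without the block called 75 and 173 of them lower. The block leaves fewer residual degrees of freedom.

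Depth limits what absence shows, as 3 counts over the KO group are 1.25 CPM. COX6B2, COX8C and ATP5MGL, whose WT levels were below that, could not be seen to fall.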
